A study of Homo sapiens with 12 samples.

Results

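SFRP1 and 9 other genes of the Wnt pathway were followed across 6 groups of cultured cancer cells: SFRP1, DKK1 and DKK3 (secreted antagonists), FZD2, FZD6, LRP5 and LRP6 (receptors), CTNNB1 and TCF7L2 (signal carrier and nuclear partner) and AXIN2 (pathway output). They were taken from 14057 genes tested and carried 33 probe sets on the array, each assigned to 1 gene alone, of which 26 passed a filter on dim signals, so that all 10 genes were tested. Each gene is represented by its probe set of highest mean over the 12 arrays. SFRP1 was chosen for its low signal under siKDM3A in A549, so that value and the difference between lines that contains it are given as descriptions without a p.

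Each group had 2 hybridisations to Affymetrix U133 Plus 2.0 arrays. The lines were A549, from a lung adenocarcinoma, grown in RPMI1640, and SW780, from a bladder carcinoma, grown in Leibovitz L-15, so that line and medium cannot be told apart. Cells of each line received 1 of 3 siRNA duplexes at 100 nM by lipofection for 24 h: siKDM3A, or the controls siEGFP and siFFluc, which are named for reporter genes. The siKDM3A duplex is directed at KDM3A, a demethylase of histone H3 lysine 9, and the labels name only 1 such duplex. The labels do not say that replicate arrays came from separate cultures, so the p-values speak of the variation among these particular arrays, which could be technical in part or in full.

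Wnt ligands bind Frizzled receptors together with the coreceptors LRP5 and LRP6. This stops the destruction complex of AXIN, APC and kinases from marking beta-catenin for the proteasome, and beta-catenin then acts with TCF and LEF factors on target genes such as AXIN2. Secreted Frizzled-related proteins, of which SFRP1 is one, bind the ligands outside the cell, while DKK1 binds LRP5 and LRP6. SFRP1 is silenced by promoter methylation in many carcinomas.

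KDM3A signals were lower than in all controls of the line on each siKDM3A array. They were 692.5 and 712.4 in A549, against 1299.7 to 1518.6 on its 4 control arrays, and 196.8 and 223 in SW780, against 359.1 to 432.6. This left 50.5% and 53.3% of the control mean. Median signal per array was 50.3 to 59.1. In A549 it was 53.1 and 51.9 under siKDM3A against 57.4 to 59.1 in the controls, and in SW780 it was 58.1 and 54.3 against 50.3 to 54.2. All 5 epithelial markers were above a signal of 100 in both lines. Of 10 urothelial markers 8 were above it in SW780 and 5 in A549, and of 8 lung and alveolar markers 3 were above it in A549 and 1 in SW780. NKX2-1, a defining lung factor, had a mean of 9.23 in A549.

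SFRP1 gave a strong signal in A549 controls, was far lower there under siKDM3A, and was low in SW780 whatever the siRNA. On its main probe set, 202037_s_at, the A549 signals were 2092.2 and 1884.6 with siEGFP, 1858.1 and 1757.6 with siFFluc, and 328.3 and 316.6 with siKDM3A. In SW780 they were 56.3 and 88.5 with siEGFP, 104.4 and 114.1 with siFFluc, and 50.9 and 42.3 with siKDM3A. Both siKDM3A arrays lay under all 4 controls in each line, by a wide gap in A549 and a narrow one in SW780, where every array was dimmer than the dimmest A549 array.

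**Figure D1:**
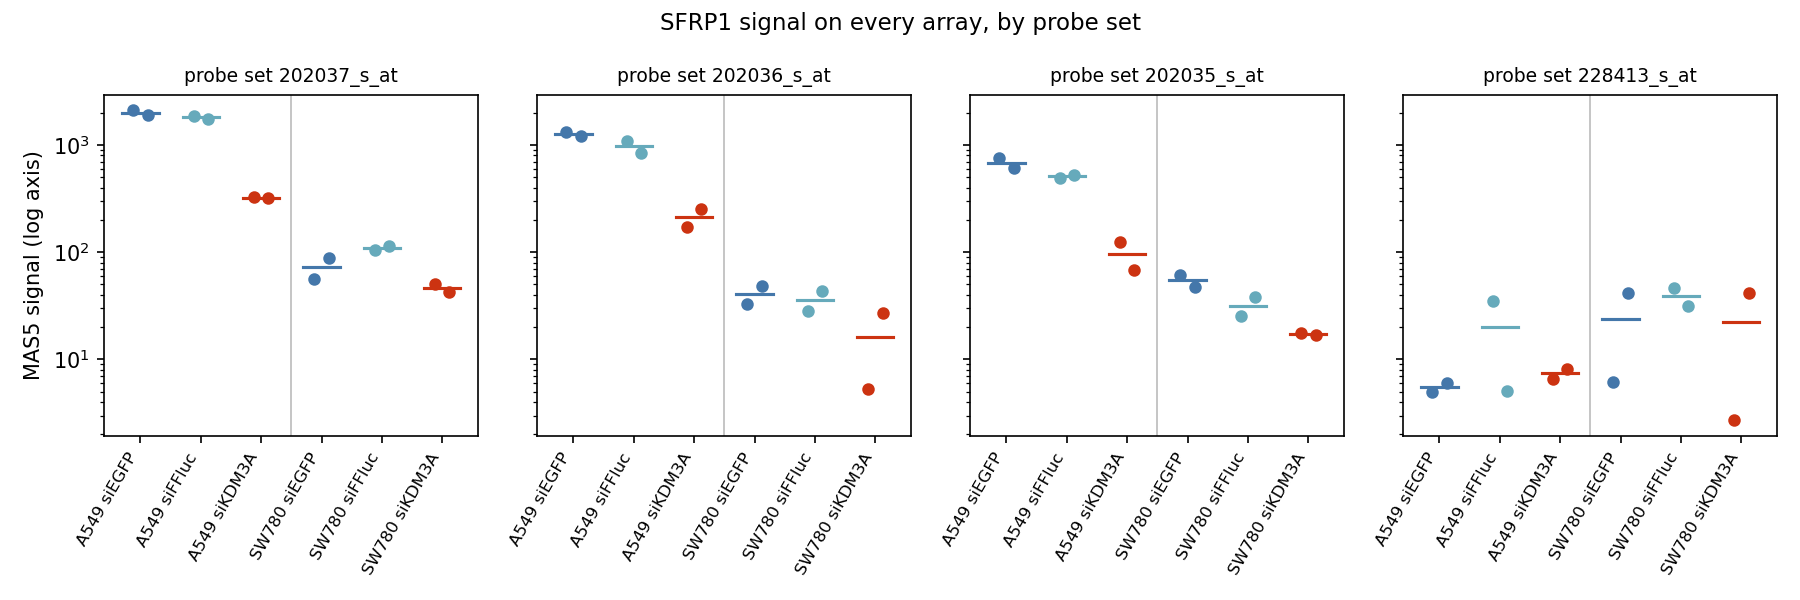
Signal of the 4 SFRP1 probe sets on each of the 12 arrays, grouped by line and siRNA, on a log axis in MAS5 signal units, each point 1 array and each bar a group mean. On 202037_s_at the siKDM3A arrays of A549 sit at 316.6 and 328.3 under controls of 1757.6 to 2092.2, and 228413_s_at stays at or under 46.4 on every array.

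In A549 the siKDM3A mean was 17% of the control mean (322.5 ± 8.27, SD, n = 2, against 1898 ± 140, n = 4). The difference was −2.50 ± 0.16 (log2 of signal + 16, ± SE), the lowest of the 14057 genes tested in that comparison. It chose the gene and is not tested. Within an array, SFRP1 stood at the 89.9th to 91.2nd percentile of probe sets in A549 controls and at the 73.1st to 73.5th under siKDM3A.

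The 2 other SFRP1 probe sets above the filter gave a like difference in A549. The siKDM3A mean of 202036_s_at was 19.1% of the control mean (172.9 and 253.7 against 843 to 1315.1), and that of 202035_s_at was 16.1% (68.2 and 124.1 against 494.9 to 754.8). Their log2 differences were −2.31 ± 0.28 and −2.48 ± 0.24. The fourth, 228413_s_at, was dim in both lines, at 2.7 to 46.4, and carries no information on the change.

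SFRP1 was chosen on its A549 value, and the SW780 arrays give a test of it in another line. Members and tests were set with earlier results of these data known, so this test is not fully independent of the choice. SFRP1 fell there by 0.74 ± 0.16 on the log2 scale (adjusted p = 0.00892), from 90.82 ± 25.3 (n = 4) to 46.6 ± 6.08 (n = 2), or 51.3% of the control signal. The lower end of the array's range compresses this value, since 16 was added to each signal. It ranked 308th among the falls in SW780. The other probe sets gave −0.82 ± 0.28 (adjusted p = 0.0867) and −0.79 ± 0.24 (adjusted p = 0.0606), both signals near background.

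The call in SW780 rested on the siFFluc arrays: the difference was −0.48 against siEGFP alone (adjusted p = 0.147) and −1.0 against siFFluc alone (adjusted p = 0.00287). It was also not past the threshold without SW780 siKDM3A replicate 2 (−0.64, adjusted p = 0.0858) or with the SW780 arrays fitted alone (adjusted p = 0.165). The difference between lines in the response, SW780 minus A549, was 1.76 ± 0.22 and is a description.

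The control siRNAs did not separate SFRP1 past the threshold in either line. siFFluc minus siEGFP was −0.13 ± 0.18 in A549 (adjusted p = 0.87; 95% interval −0.53 to 0.26) and 0.53 ± 0.18 in SW780 (adjusted p = 0.113; 0.14 to 0.92). These values are of the main probe set. In A549 202035_s_at gave −0.40 ± 0.28 and 202036_s_at −0.38 ± 0.32 (adjusted p = 0.694 and 0.774). In SW780 they had the opposite sign to the main probe set, at −0.58 ± 0.28 and −0.13 ± 0.32 (adjusted p = 0.299 and 0.876). Both comparisons share their control arrays with the siKDM3A comparisons.

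Summed signals of some marker lists also moved with siKDM3A, while others overlapped with the controls. The summed signal of 7 fibroblast markers, a cell type rich in SFRP1, was 970.8 to 1154.1 under siKDM3A against 1380.7 to 1409.2 in the controls, with 3 of 7 above 100 in A549. COL1A1 and LUM carried most of it, while COL1A2, COL3A1 and PDGFRB were near background, at no more than 51.1 on any array of A549. The summed signal of the 8 lung markers was 1195.2 to 1287.5 against 1503.5 to 1761.5. In SW780 the fibroblast sum overlapped, at 637.4 to 649.8 against 509.6 to 921.7, with 2 of 7 markers above 100. Of 6 leukocyte markers 0 were above 100 in A549 and 1 in SW780, and their sum was below all controls in both lines, at 171.9 to 272.8 against 287.6 to 346.3 in A549 and 188.4 to 255.4 against 282.8 to 392.6 in SW780. The urothelial sum was below all controls in SW780, at 38964.7 to 39903.6 against 41866.7 to 53372.8. The epithelial sum was above all controls in A549, at 44793.2 to 45768.7 against 41431.4 to 44565.7. In SW780 it overlapped, at 98878.6 to 110013.3 against 94830.6 to 139745.9. The lung sum overlapped in SW780 (337.1 to 455.1 against 360.8 to 520.3), as did the urothelial sum in A549 (3910.3 to 4203.9 against 3628.1 to 4106.8). The part of these lists in the SFRP1 values and in the values of the other members was not tested. Fewer cells with a transcript and less of it per cell cannot be told apart on these arrays.

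Across the 10 genes, siKDM3A moved few past the threshold of an adjusted p of 0.05. In A549, 1 of the 9 genes other than SFRP1 was higher (FZD2) and 0 were lower, with 5.33% of all tested genes called higher and 6.37% lower. In SW780, 1 of 10 was higher (TCF7L2) and 2 were lower (SFRP1 and CTNNB1), against 5.73% and 6.18% of all genes. Their median difference was 0.08 in A549 and −0.07 in SW780, beside −0.02 and 0.03 over all genes. At an unadjusted p under 0.05 in limma, 2 of the 9 were higher and 0 lower in A549, and 2 of 10 were higher and 3 lower in SW780, among 3568 and 3622 of all genes.

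The count depends on the scaling of the arrays. When arrays were brought to 1 median, the median of all genes in A549 moved from −0.02 to 0.13 and the calls from 749 higher and 896 lower to 2217 and 415. In SW780 they moved from 806 and 869 to 287 and 1257, with a median of −0.07. Then 4 members were higher in A549 (DKK1, FZD2, FZD6 and TCF7L2) and 0 lower, and in SW780 0 were higher and 2 lower (SFRP1 and CTNNB1).

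By order of signals alone, both siKDM3A arrays lay above all 4 controls for DKK1 and FZD2 in A549 and for TCF7L2 and FZD6 in SW780. They lay below all 4 for SFRP1 and AXIN2 in A549 and for SFRP1 and CTNNB1 in SW780. The A549 place of SFRP1 was fixed by its choice, and without it 1 of 9 members was below there. The shares of all tested genes with such an order were 17.0% above and 19.9% below in A549, and 15.4% and 13.3% in SW780. In each line 6 of the 10 overlapped.

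**Figure D2:**
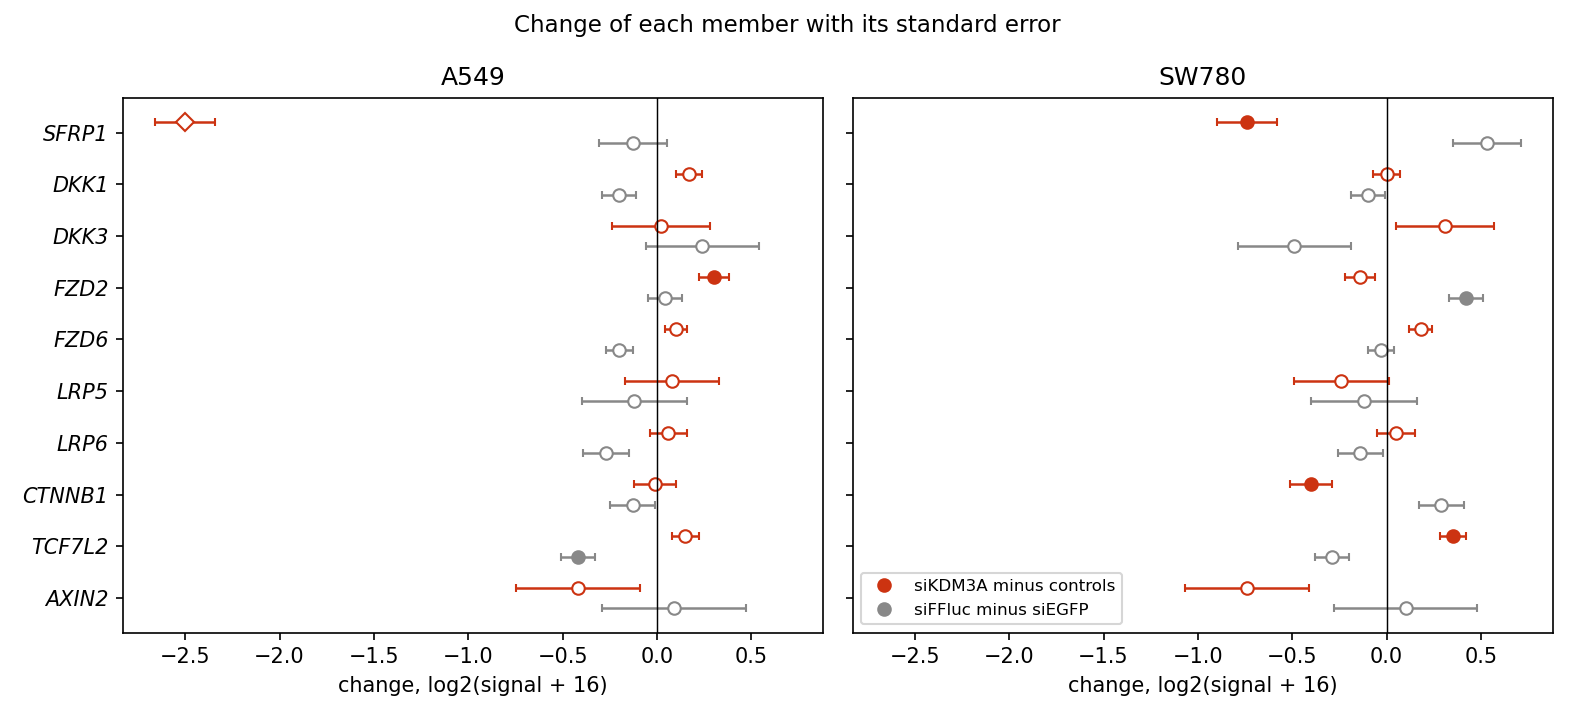
Change of each of the 10 genes in A549 (left) and SW780 (right) on the log2(signal + 16) scale, as siKDM3A minus controls (red) and siFFluc minus siEGFP (grey), with bars for 1 standard error and filled circles where the adjusted p passed 0.05. SFRP1 in A549, drawn as a diamond without a test, lies at −2.50, and the other 9 genes lie between −0.42 and 0.30 in that line.

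Among the antagonists, DKK1 gave a strong signal on every array, and siKDM3A moved it past the threshold in neither line. Its A549 signals were 13760.6 and 13779.8 with siEGFP, 12116.6 and 11791.1 with siFFluc, and 14280.2 and 14612.4 with siKDM3A. The siKDM3A arrays were the highest, just above siEGFP, and the siFFluc arrays the lowest. The difference was 0.17 ± 0.07 (adjusted p = 0.168), and it passed the threshold with A549 arrays fitted alone (adjusted p = 0.0162) and without either SW780 siFFluc array (adjusted p = 0.0433 and 0.0436). In SW780 signals were 8603.9 and 7738.7, 8388.7 and 6886.4, and 7896.5 and 7863.5, and the difference was 0.00 ± 0.07 (95% interval −0.16 to 0.16).

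DKK3, a dickkopf family member whose action on Wnt signalling is less settled, was seen in A549 alone. Its main probe set read 1811.7 and 1862.1, 2269.8 and 2084.6, and 1906.2 and 2161.7 in A549 for siEGFP, siFFluc and siKDM3A. The siFFluc and siKDM3A arrays overlapped, and the siEGFP arrays lay below both. In SW780 it was at 2.2 to 24.0 on all 6 arrays. The siKDM3A difference in A549 was 0.02 ± 0.26 (adjusted p = 0.973). The value of 0.31 ± 0.26 in SW780 (adjusted p = 0.504) compares signals at background, and it was 0.85 (adjusted p = 0.0479) without SW780 siKDM3A replicate 2.

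All 4 kept DKK3 probe sets had a value above 0 in A549, from 0.02 to 0.57, and none passed the threshold. The brighter of the others, 230508_at, read 644.0 and 559.4 with siKDM3A against 347.6 to 451.4 in the controls. That is a gap with no overlap, and its difference was 0.55 ± 0.30 (adjusted p = 0.31).

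**Figure D3:**
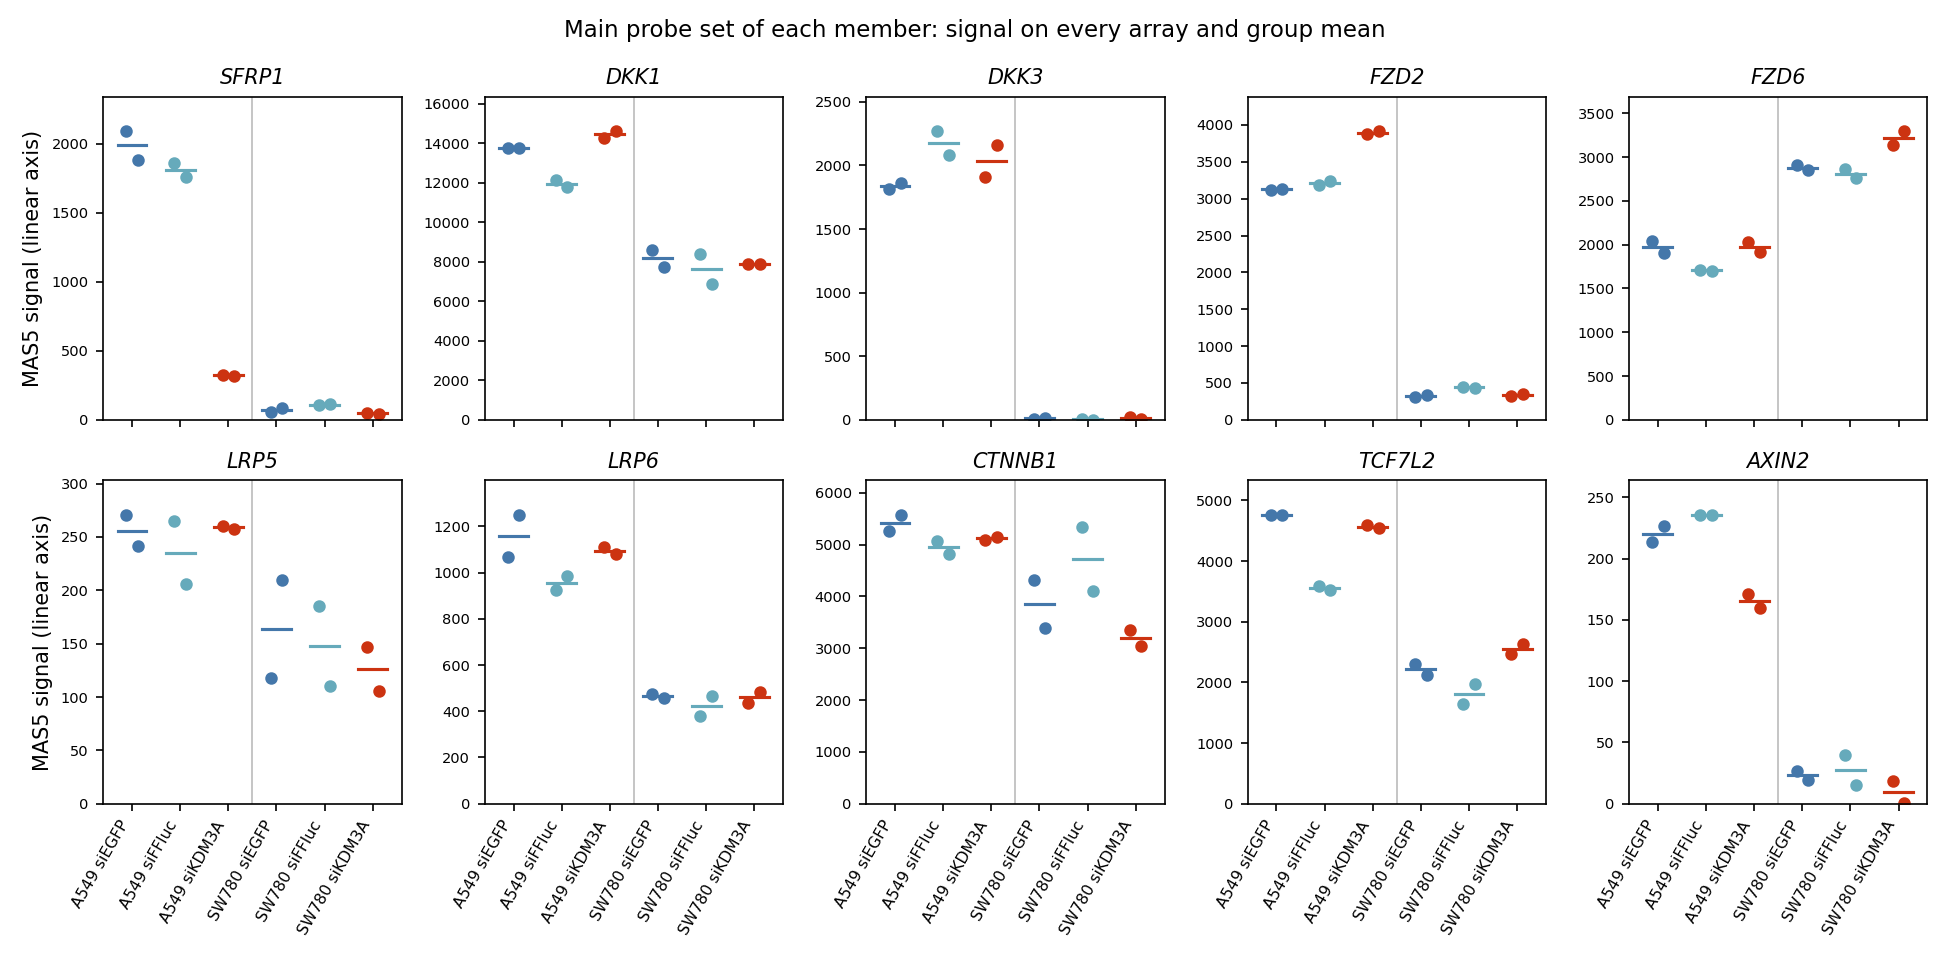
Signal of the main probe set of each of the 10 genes on the 12 arrays, 1 panel a gene, 1 point an array and a bar at each group mean, on linear axes from 0 in MAS5 signal units. DKK3, SFRP1, AXIN2 and FZD2 show the widest gaps between the A549 and SW780 arrays, and FZD6 is the gene that reads higher in SW780.

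The receptors gave 1 call in A549, on FZD2, a Frizzled receptor that binds WNT5A and other ligands. FZD2 read 3121.5 and 3134.2 with siEGFP, 3180.7 and 3245.8 with siFFluc and 3879.2 and 3916.6 with siKDM3A. The siKDM3A arrays stood clear of 4 closely grouped controls, and FZD2 rose by 0.30 ± 0.08 (adjusted p = 0.0231). Its other probe set, 238129_s_at, went the other way, at 314.1 and 363.7 against 358.8 to 481.8, with a difference of −0.32 ± 0.25 (adjusted p = 0.5).

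With the probe sets averaged, the FZD2 value was −0.01 (adjusted p = 0.975), and its call ended without any 1 of the 6 A549 arrays (adjusted p = 0.0541 to 0.18), against siFFluc alone (0.0637) and without a trended prior variance (0.0515). In SW780 FZD2 read 307.9 and 342.5, 452.1 and 428.9, and 327.7 and 357.2, with the siFFluc arrays highest and the siKDM3A arrays overlapping siEGFP. The difference was −0.14 ± 0.08 (adjusted p = 0.272), and −0.35 against siFFluc alone (adjusted p = 0.0177).

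FZD6, a Frizzled receptor known for planar cell polarity, showed small values. It read 2039.5 and 1905.0, 1716.0 and 1700.7, and 2032.9 and 1912.2 in A549, where siKDM3A and siEGFP overlapped. In SW780 it read 2905.3 and 2852.4, 2861.7 and 2759.4, and 3138.3 and 3295.4, with siKDM3A above all controls. The differences were 0.10 ± 0.06 (adjusted p = 0.343) and 0.18 ± 0.06 (adjusted p = 0.0874).

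On their main probe sets the coreceptors LRP5 and LRP6 overlapped between siKDM3A and controls in both lines. LRP6 read 926.8 to 1249.6 in A549 controls against 1110.1 and 1078.8, and 380.8 to 475.9 in SW780 controls against 437.5 and 483.4. Its differences were 0.06 ± 0.10 (95% interval −0.17 to 0.28) and 0.05 ± 0.10 (−0.17 to 0.28). LRP5 read 205.8 to 270.6 in A549 and 105.2 to 209.5 in SW780 over all arrays, and its differences of 0.08 ± 0.25 and −0.24 ± 0.25 had adjusted p of 0.894 and 0.592. A dim LRP5 probe set left out by the filter, 229591_at, was below all controls under siKDM3A in both lines. It read 19.2 and 22.8 against 30.4 to 53.4 in A549, and 2.3 and 6.4 against 12.7 to 75.3 in SW780.

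CTNNB1, which encodes beta-catenin, was called lower in SW780, as was SFRP1. TCF7L2, the TCF factor that beta-catenin binds on DNA, was the member called higher there. No promoter window was found for SFRP1, and those of CTNNB1 and TCF7L2 are shown. They come from RefSeq on GRCh38.p14, from 250 bases before to 50 after the start of transcription: chr3:41199255-41199554 on the plus strand for CTNNB1 and chr10:112949997-112950296 on the plus strand for the first of 3 TCF7L2 windows. CpG dinucleotides are in capitals.
CTNNB1 promoter window: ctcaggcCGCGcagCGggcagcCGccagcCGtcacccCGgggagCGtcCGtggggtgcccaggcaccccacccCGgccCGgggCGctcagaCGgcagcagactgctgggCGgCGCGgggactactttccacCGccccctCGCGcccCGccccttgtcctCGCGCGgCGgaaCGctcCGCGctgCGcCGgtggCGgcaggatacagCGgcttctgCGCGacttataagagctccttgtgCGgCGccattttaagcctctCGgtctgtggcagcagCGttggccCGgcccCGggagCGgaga
TCF7L2 promoter window: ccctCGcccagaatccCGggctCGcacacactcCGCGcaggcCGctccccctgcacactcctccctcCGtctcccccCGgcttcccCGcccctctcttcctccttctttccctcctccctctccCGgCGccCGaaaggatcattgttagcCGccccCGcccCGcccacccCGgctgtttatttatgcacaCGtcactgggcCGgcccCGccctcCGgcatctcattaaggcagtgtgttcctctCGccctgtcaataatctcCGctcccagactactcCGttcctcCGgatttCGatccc

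The CTNNB1 window held 39 CpG dinucleotides at 74% GC and the TCF7L2 window 25 at 65.7%, against a median of 14 CpG over 35116 promoter windows of that length. The TCF motif ATCAAAG, or its reverse complement CTTTGAT, was absent from the 6 windows found for members (DKK1, LRP5, CTNNB1 and 3 of TCF7L2) and present in 2.62% of all windows. This says only that these letters are not in these windows.

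In A549 CTNNB1 did not pass the threshold. Its signals were 5270.7 and 5572.6, 5077.1 and 4818.5, and 5097.8 and 5156.3, the siKDM3A arrays lying within the controls, with a difference of −0.01 ± 0.11 (95% interval −0.24 to 0.22). In SW780 they were 4318.6 and 3393.5 with siEGFP, 5335.0 and 4097.7 with siFFluc and 3343.8 and 3052.7 with siKDM3A. The siKDM3A arrays were the lowest, 1 of them by little, and the controls were widely spread.

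CTNNB1 fell by 0.40 ± 0.11 in SW780 (adjusted p = 0.0266). Its 2 other probe sets gave 0.15 ± 0.22 and 0.21 ± 0.22 (adjusted p = 0.749 and 0.631), and the average over probe sets was −0.02 (adjusted p = 0.936). The call was also lost against siEGFP alone (−0.26, adjusted p = 0.252), without SW780 siEGFP replicate 1 (0.0776), siKDM3A replicate 1 (0.0843) or siKDM3A replicate 2 (0.204), with SW780 arrays alone (0.0918) and without a trended prior variance (0.111). The difference between lines was −0.39 ± 0.15 (adjusted p = 0.188; 0.0378 without SW780 siFFluc replicate 2).

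TCF7L2 was lowest with siFFluc in both lines. It read 4758.4 and 4755.0, 3582.4 and 3517.1, and 4586.2 and 4548.7 in A549, where siKDM3A lay just under siEGFP. In SW780 it read 2305.4 and 2120.6, 1644.2 and 1978.2, and 2464.9 and 2634.5, where siKDM3A lay above all controls.

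TCF7L2 rose by 0.35 ± 0.07 in SW780 (adjusted p = 0.00975), and all 7 of its probe sets had a value above 0 there, from 0.13 to 0.98, 1 of them past the threshold. The call ended against siEGFP alone (0.20, adjusted p = 0.199), without SW780 siKDM3A replicate 2 (0.11), with SW780 arrays alone (0.057), under median scaling (0.0702) and without a trended prior variance (0.0563). In A549 the difference was 0.15 ± 0.07 (adjusted p = 0.231), made of 0.36 against siFFluc (adjusted p = 0.0191) and −0.06 against siEGFP (adjusted p = 0.769).

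AXIN2, a scaffold of the destruction complex that beta-catenin and TCF induce in turn, was low under siKDM3A in A549 without passing the test. It read 213.6 and 226.4, 235.2 and 235.6, and 171.4 and 160.0, so the siKDM3A arrays lay below 4 closely grouped controls. The difference was −0.42 ± 0.33 (adjusted p = 0.478; 95% interval −1.13 to 0.29), and with A549 arrays alone the adjusted p was 0.0571. The standard error comes from all 12 arrays. The SW780 signals, 26.8 and 19.3, 40 and 14.9, and 18.2 and 0.9, were near background and overlapped, with a difference of −0.74 ± 0.33 (adjusted p = 0.175). It was −0.23 without siKDM3A replicate 2 and −1.25 without replicate 1.

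**Figure D4:**
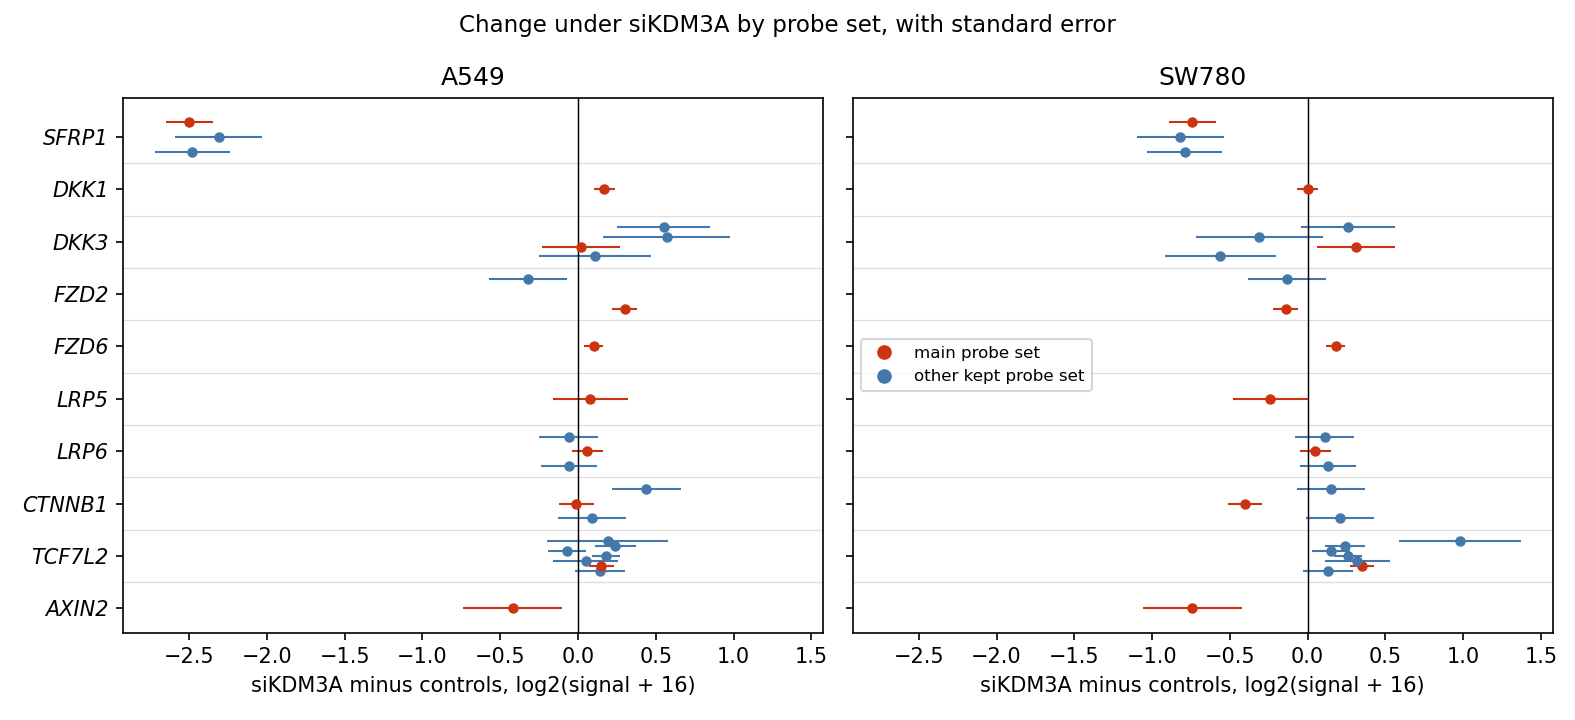
Change under siKDM3A of each kept probe set of the 10 genes in A549 (left) and SW780 (right), on the log2(signal + 16) scale with bars for 1 standard error; red marks the main probe set and blue the others. The 3 SFRP1 probe sets lie together, between −2.50 and −2.31 in A549, while the FZD2 probe sets lie on opposite sides of 0 there and the CTNNB1 probe sets do so in SW780.

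The response to siKDM3A differed between lines for 1 of the 9 members other than SFRP1. It was FZD2, at −0.44 ± 0.11 as SW780 minus A549 (adjusted p = 0.0493, and 0.0631 with each probe set as its own row). Over all genes 1.80% were called with a higher and 0.989% with a lower response in SW780 (253 and 139 genes, and 116 and 1825 under median scaling, with a median of −0.21 in place of 0.04). This call, at the edge of the threshold, ended under 17 of 23 other settings, among them the removal of any 1 array that was not an SW780 siFFluc array (adjusted p = 0.0659 to 0.213), and the value was −0.24 against siEGFP alone and −0.12 over both probe sets.

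The control siRNAs differed from each other at 1 member in each line. TCF7L2 was lower with siFFluc than with siEGFP in A549, by −0.42 ± 0.09 (adjusted p = 0.0183), and FZD2 was higher with siFFluc in SW780, by 0.42 ± 0.09 (adjusted p = 0.0158). The first call ended without any 1 of the 4 A549 control arrays (adjusted p = 0.0914 to 0.132). The second ended without SW780 siEGFP replicate 1 (0.105), without siFFluc replicate 1 (0.0509) and with SW780 arrays alone (0.212). Of all genes, 1.43% were called higher and 1.49% lower with siFFluc in A549, and 3.07% and 2.65% in SW780. The SW780 split was 431 higher and 372 lower, and it was 180 and 235 under median scaling and 198 and 258 under quantile normalization.

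None of the 3 genes called under siKDM3A in SW780 passed the threshold between its control siRNAs. For TCF7L2 siFFluc minus siEGFP was −0.29 ± 0.09 (adjusted p = 0.0697), for CTNNB1 0.29 ± 0.12 (adjusted p = 0.207) and for SFRP1 0.53 ± 0.18, beside 0.35, −0.40 and −0.74 for siKDM3A minus controls. Without SW780 siFFluc replicate 2 the first 2 passed the threshold (adjusted p = 0.00488 and 0.0203). These comparisons share control arrays, so their values are not independent. Against siEGFP as the only control, 0 members were called under siKDM3A in SW780.

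Between the control arrays of the lines, 7 members had a mean of at least the filter signal of 29.6 in both. FZD6 was higher in SW780 and the other 6, DKK1, TCF7L2, CTNNB1, FZD2, LRP5 and LRP6, were lower, among 29.9% of all genes called higher and 38.5% lower. Their median was −0.70, against −0.11 over all genes. Under median scaling 1 was higher and 5 lower, with a median of −0.55 against 0.03. DKK3 and AXIN2 passed the filter through A549 alone and so had to differ, and SFRP1 shares the A549 controls with the value that chose it. These 3 are described without a test.

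The levels of DKK3 were 293 times as high in A549 controls as in SW780 controls by mean signal, those of SFRP1 20.9, of AXIN2 9.02 and of FZD2 8.28 times. On the log2 scale SW780 minus A549 was −4.20 ± 0.13 for SFRP1, −6.50 ± 0.21 for DKK3, −2.60 ± 0.27 for AXIN2 and −3.01 ± 0.06 for FZD2, the last with an adjusted p of 1.24e-13. The DKK3 and AXIN2 ratios have SW780 control signals of 2.2 to 16.3 and 14.9 to 40 as their base, near background, so their sizes are uncertain.

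The other members differed by smaller amounts. LRP6 was at −1.22 ± 0.09, TCF7L2 at −1.04 ± 0.06 and DKK1 at −0.70 ± 0.06, with adjusted p of 2.68e-08, 4.61e-09 and 2.26e-07. FZD6 was at 0.63 ± 0.05 (adjusted p = 1.09e-07). LRP5 (−0.65 ± 0.20, adjusted p = 0.0114) and CTNNB1 (−0.29 ± 0.09, adjusted p = 0.00901) were called less firmly. LRP5 lost its call without SW780 siEGFP replicate 1 (0.0594) or siFFluc replicate 2 (0.053), with either control alone and under quantile normalization, and CTNNB1 without SW780 siEGFP replicate 2 (0.0519), against siFFluc alone (0.595) and under median scaling (0.259).

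The order of SFRP1 over the 6 group means was siEGFP, siFFluc and siKDM3A in A549, then siFFluc, siEGFP and siKDM3A in SW780. Their means ran 1988, 1808, 322.5, 109.2, 72.4 and 46.6. Among neighbours, the A549 controls, the SW780 controls, and siEGFP and siKDM3A in SW780 did not differ past the threshold, although their signals did not overlap. The siKDM3A arrays of A549 stood apart from both neighbours.

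The genes whose 6 group means correlated best with those of SFRP1 were GOLIM4, PHAF1 and SMARCAL1 (Pearson r = 0.996 each) and WDR6 and HDAC6 (0.995 each). The correlation is over 6 group means that fall mostly into 2 lines, and it ignores size: the A549 difference was −0.49 for GOLIM4, −0.60 for PHAF1, −0.69 for SMARCAL1, −0.69 for WDR6 and −0.40 for HDAC6, against −2.50 for SFRP1. Among members the r with SFRP1 was 0.94 for AXIN2, 0.89 for DKK3, 0.88 for FZD2 and −0.93 for FZD6, and 0.76 to 0.87 for the other 5.

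The wider pathway was read from 7 lists of 118 genes by role, of which 111 had a probe set and 83 were tested. In A549, with SFRP1 left out, 7 of 82 were higher and 11 lower under siKDM3A, and in SW780 2 of 83 were higher and 12 lower. Medians were −0.02 and −0.03, beside −0.02 and 0.03 over all genes. Over all genes 5.33% were called higher and 6.37% lower in A549, and 5.73% and 6.18% in SW780. ZNRF3, DKK1, AXIN2, RNF43 and NOTUM are shared between lists, so the counts of separate lists overlap.

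**Figure D5:**
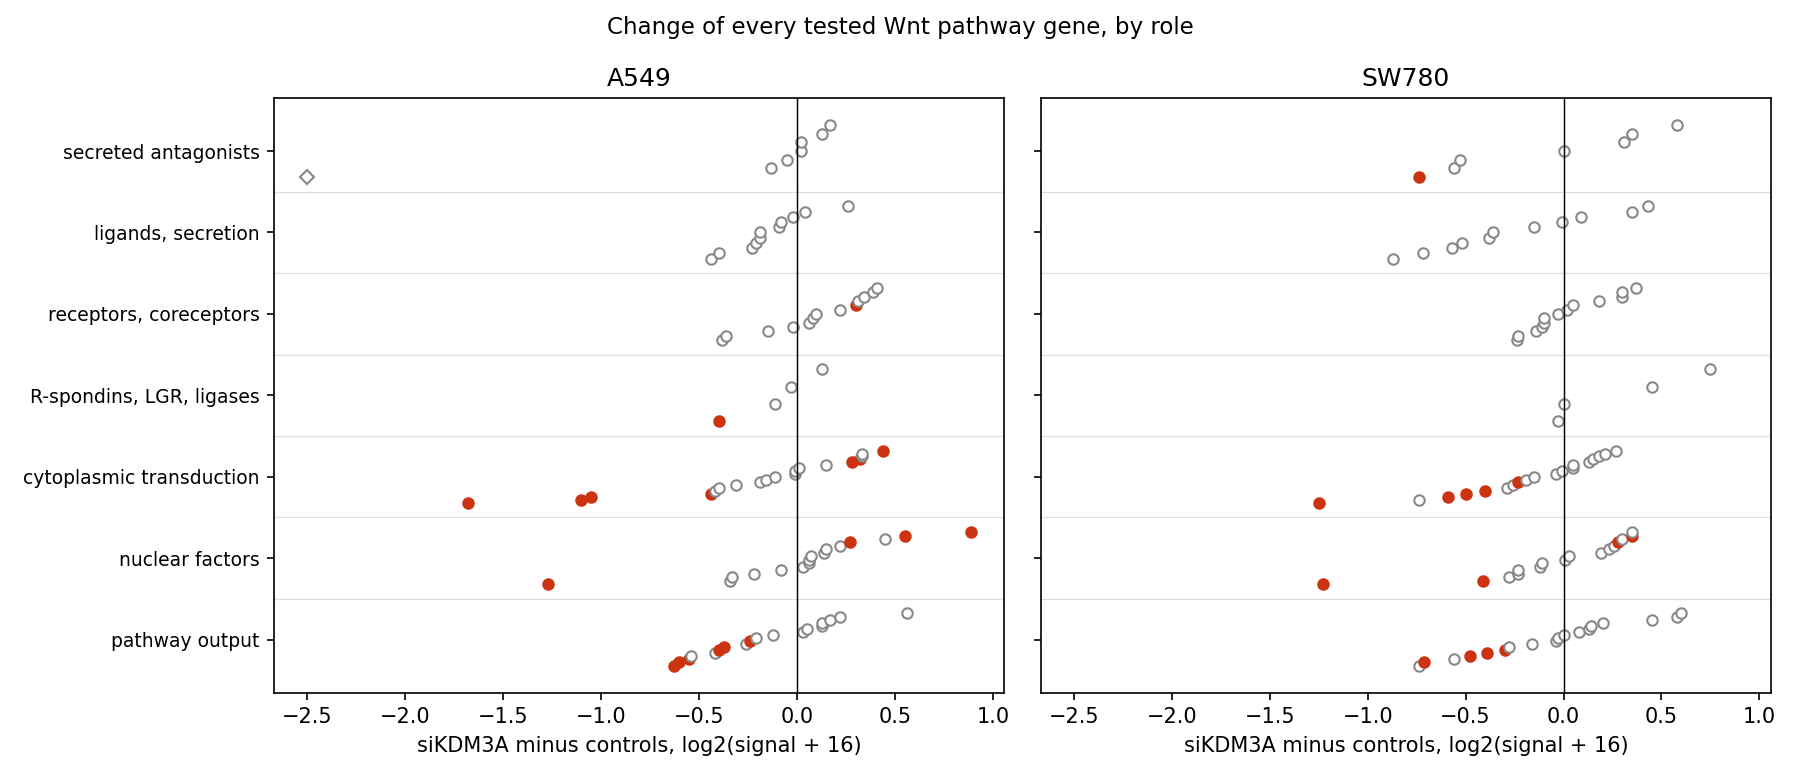
Change under siKDM3A of each tested gene of the 7 role lists in A549 (left) and SW780 (right), 1 point a gene, on the log2(signal + 16) scale, with filled points where the adjusted p passed 0.05. The called genes are in the cytoplasmic, nuclear, output, receptor and R-spondin lists in A549, and SFRP1 is the one called antagonist in SW780.

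Of the 15 antagonists 7 were tested, and none but SFRP1 was called under siKDM3A in either line. The ligand list had 0 calls among 11 tested genes in both lines, with medians of −0.19 and −0.36. At an unadjusted p under 0.05 in limma 0 of them were past the threshold in A549, and in SW780 0 were higher and 6 lower. Of all 14057 genes, 3568 in A549 and 3622 in SW780 passed this cut in either direction. Lower genes were not counted apart there, so the 6 ligands have no matching share. The 13 tested receptors gave FZD2 in A549 alone. The adjusted calls of these 3 lists stand beside 5.33% of all genes higher and 6.37% lower in A549, and 5.73% and 6.18% in SW780.

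The list of R-spondins, LGR receptors and receptor ubiquitin ligases had 1 call among 4 tested genes, beside 6.37% of all genes called lower in A549. It was ZNRF3, a ligase that removes Frizzled receptors from the surface, which fell by 0.40 ± 0.10 in A549, from 1007 ± 89.9 to 755 ± 34.7 (adjusted p = 0.0196). This call ended against siEGFP alone (0.145), under median scaling (0.134) and without A549 siFFluc replicate 2 (0.0579), siKDM3A replicate 1 (0.0916) or siKDM3A replicate 2 (0.188).

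Of 19 tested genes of the cytoplasmic list 3 were higher and 4 lower in A549, and 0 were higher and 5 lower in SW780. The shares of all genes were 5.33% and 6.37% in A549, and 5.73% and 6.18% in SW780. Genes were named by smallest p, which left the 3 higher ones in A549 unnamed. BTRC, the F-box protein that recognises phosphorylated beta-catenin for degradation, fell in both lines, by 1.68 ± 0.21 in A549 (429.1 ± 7.85 to 123.2 ± 2.26, adjusted p = 3.12e-04) and by 1.25 ± 0.21 in SW780 (327 ± 8.68 to 137.2 ± 73, adjusted p = 0.00249). With its probe sets averaged the values were −0.62 (adjusted p = 0.0125) and −0.66 (adjusted p = 0.0085), and in SW780 it was −0.74 without siKDM3A replicate 2.

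CSNK1G1, a casein kinase that phosphorylates LRP6, fell by 1.05 ± 0.08 in A549 (1240 ± 94.4 to 589.1 ± 33.9, adjusted p = 4.96e-06) and by 0.50 ± 0.08 in SW780 (adjusted p = 0.00183; 0.0998 with probe sets averaged). DVL2, a Dishevelled protein that passes the signal on from Frizzled, fell by 1.10 ± 0.10 in A549 (698.3 ± 22.9 to 317.4 ± 8.49, adjusted p = 2.51e-05). In SW780 CSNK1E fell by 0.59 ± 0.12 (adjusted p = 0.00798), a call that ended without SW780 siKDM3A replicate 1 (0.124), with SW780 arrays alone (0.0519) and with probe sets averaged (0.0653).

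Nuclear factors moved both ways. In A549 the corepressor TLE4 rose by 0.89 ± 0.13 (587.5 ± 172 to 1067 ± 17.4, adjusted p = 6e-04). It was also 0.70 ± 0.15 higher with siFFluc than with siEGFP (adjusted p = 0.0199). That control difference was 0.03 with probe sets averaged (adjusted p = 0.991). CBY1, which binds beta-catenin and holds it from TCF factors, rose by 0.55 ± 0.11 (adjusted p = 0.0056), and the coactivator BCL9 fell by 1.27 ± 0.24 (178.8 ± 37.3 to 63.75 ± 1.06, adjusted p = 0.00411). The CBY1 call ended without either A549 siKDM3A array (0.0535 and 0.0736), and the TLE4 call with its probe sets averaged (0.16). Of 16 tested genes 3 were higher and 1 lower, beside 5.33% and 6.37% of all genes.

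In SW780 the nuclear list had 2 higher and 2 lower, beside 5.73% and 6.18% of all genes. TCF7L1, a TCF factor that mostly represses, was called lower, but it passed the filter through its A549 signal of 205.9 ± 30.9 and compares SW780 signals near background (36.48 ± 13.5 and 5.8 ± 1.7). Its value was −1.23 ± 0.23 (adjusted p = 0.00409; 0.0989 with SW780 arrays alone), and it was −2.41 and −0.52 with pseudocounts of 1 and 64. BCL9L fell by 0.41 ± 0.11 (adjusted p = 0.0269) and TLE1 rose by 0.28 ± 0.08 (adjusted p = 0.0334). The BCL9L call ended without SW780 siEGFP replicate 1 or either siKDM3A array (0.082 to 0.164), against siFFluc alone, with SW780 arrays alone and with probe sets averaged, and the TLE1 call ended in 14 of 24 other settings.

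Genes that beta-catenin and TCF are known to induce fell or did not pass the test. In A549 0 of 18 were higher and 6 lower, with a median of −0.22, and in SW780 0 were higher and 4 lower, with a median of −0.04. Over all genes 5.33% were higher and 6.37% lower in A549, and 5.73% and 6.18% in SW780. The A549 count includes ZNRF3, already described with the R-spondin list. At an unadjusted p under 0.05 in limma, 2 were higher and 6 lower in A549, and 1 higher and 5 lower in SW780. Of all 14057 genes, 3568 and 3622 passed this cut in either direction, with higher and lower genes not counted apart. SOX9, a transcription factor of progenitor cells, fell in both lines, by 0.55 ± 0.10 in A549 (793.4 ± 129 to 532.4 ± 8.91, adjusted p = 0.00298) and by 0.71 ± 0.10 in SW780 (1161 ± 137 to 701.1 ± 1.56, adjusted p = 6.76e-04). Against siFFluc alone the A549 value was −0.36 (adjusted p = 0.0608).

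TBX3, a T-box repressor, fell by 0.63 ± 0.13 in A549 (769.8 ± 42.4 to 493.6 ± 41.2, adjusted p = 0.00739), a call that ended without siKDM3A replicate 2 (0.111) and with probe sets averaged (0.117). In SW780 the adhesion receptor CD44 fell by 0.39 ± 0.06 (7089 ± 726 to 5396 ± 121, adjusted p = 0.00159). CCND1, cyclin D1, fell by 0.48 ± 0.09 (5268 ± 628 to 3743 ± 74.3, adjusted p = 0.00588; 0.0635 without siKDM3A replicate 1 and 0.0511 without a trended prior variance). These genes answer to other pathways as well, and the list was written with earlier results of these arrays known, so its direction is not independent evidence.

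Other pathway genes separated the control siRNAs. FBXW11, the paralogue of BTRC, was higher with siFFluc than with siEGFP by 1.25 ± 0.08 in A549 and 1.05 ± 0.08 in SW780 (adjusted p = 2.47e-06 and 1.64e-05). FOSL1 was lower with siFFluc by −0.74 ± 0.09 and −0.67 ± 0.09 (adjusted p = 2.87e-04 and 0.00123). In A549 FZD7 was lower with siFFluc by −0.81 ± 0.13 (adjusted p = 0.00284).

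Between lines, RSPO3, a secreted ligand that strengthens Wnt signals, had a mean of 8431 ± 406 in A549 controls and 8.8 ± 5.02 in SW780 controls. It passed the filter through A549 alone, and its SW780 signal is under the filter signal. Its receptor LGR4 had 2645 ± 147 and 356.2 ± 38.1 (−2.84 ± 0.08, adjusted p = 3.7e-12). IGFBP4, from the antagonist list, was also lower in SW780, by −3.56 ± 0.13 (adjusted p = 4.83e-11). WNT5A was higher in SW780 (837.9 ± 48.8 against 225.1 ± 42.4, adjusted p = 3.04e-09), and its receptor ROR1 was lower (58.92 ± 7.49 against 799.2 ± 325, adjusted p = 5.15e-11).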

How the data were processed

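RNA was measured on 12 arrays, 2 in each of 6 groups. The deposited table holds linear intensities computed with MAS5, per the submitters' processing notes, which give no version. The trimmed mean of each array was 500.1 with 2% left out at each end. The 62 control probe sets were removed from 54675. Of the 54613 others, 41091 carried 1 symbol, 1801 several and 11721 none in an annotation of 2016, and 41037 were matched to RefSeq names (GRCh38.p14).

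Signals were taken as log2(signal + 16). Probe sets with a mean on that scale under the 40th percentile (a signal of 29.6) were left out, which kept 32768. The probe set of highest mean stood for a gene, giving 14057 genes, of which 7082 had several. A model of 6 group means was fitted in limma 3.58.1 (R 4.3.3) with a trended prior variance, and p-values were adjusted by Benjamini-Hochberg over all genes, with 0.05 as the threshold. siKDM3A was compared with the average of both control siRNAs. A second fit took each kept probe set as its own row. All comparisons within a line share its control arrays. Figures used matplotlib 3.10.9 (Python 3.11.15). The procedure was tested on simulated data.

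Members, lists and tests were chosen with earlier results of these data known. Named genes were the members, KDM3A, up to 3 list genes of smallest p past the threshold per list and comparison, and the 5 genes correlating best with SFRP1. Not every gene so chosen is described, and those left out are of the control and line comparisons. The number of arrays, 2 in a group, limits the precision. Alternatives were other pseudocounts (1 and 64), filters, scalings, prior, single controls, 1 line alone, probe sets averaged, a replicate block and each array left out.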

Additional observations from a re-analysis of the deposited data

Results flagged for a closer look

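The test of the difference between lines picked out 5 of 82 pathway genes, given as SW780 minus A549 on the log2 scale. For 3 the value was higher and for 2 lower, beside 1.80% and 0.989% of all genes. FZD2 was at −0.44 (adjusted p = 0.0493), higher under siKDM3A in A549 and not past the threshold in SW780. With each probe set as its own row the adjusted p of FZD2 was 0.0631. DVL2 was at 0.81 (adjusted p = 0.0148), lowered in A549 and at −0.29 ± 0.10 in SW780 (adjusted p = 0.0883). CSNK1G1 was at 0.55 (adjusted p = 0.029), lowered in both lines and by more in A549. TBX3 was at 0.76 (adjusted p = 0.0452), lowered in A549 and at 0.14 ± 0.13 in SW780 (adjusted p = 0.556). TNKS2, a tankyrase that marks AXIN for degradation, was at −0.37 (adjusted p = 0.0455), from 2414 ± 99.8 to 2670 ± 68.4 in A549 and from 2323 ± 144 to 1979 ± 8.06 in SW780. The DVL2 value was 0.14 (adjusted p = 0.829) with its probe sets averaged, and its call also ended without any 1 of the 4 siKDM3A arrays (0.0515 to 0.093). The other calls ended in 17 (FZD2), 12 (CSNK1G1), 17 (TNKS2) and 19 (TBX3) of 23 other settings.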

How the results depend on the processing

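Counts of genes called (1645 in A549, 1675 in SW780, 392 between lines, and 410 and 803 between control siRNAs in A549 and SW780) moved with the scaling, the prior, the control and the arrays left out. Median scaling gave 2632 in A549, 1941 between lines and 415 for the control siRNAs in SW780. Without a trend in the prior the 5 counts were 872, 884, 88, 235 and 228. With 1 line alone they were 2621 in A549, 883 in SW780 and, for the control siRNAs in SW780, 167. Against siEGFP alone, 894 were called in SW780 and 80 between lines. No filter gave 216 between lines, averaged probe sets 154 there and 524 for the control siRNAs in SW780, and quantile normalization 456 for the latter. Same-numbered replicates did not deviate together (r of −0.0309 to 0.016 over 15 pairs of groups), and the replicate block gave 250 between lines, 1639 in A549 and 1612 in SW780.

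Of the members, 1 was called in A549, 3 in SW780, 1 between lines and 1 in each control comparison. Median scaling gave 4 in A549 and 2 between lines, and 1 line alone gave 3 in A549, 0 in SW780, and 2 and 0 between control siRNAs in A549 and SW780. Averaged probe sets, and likewise a prior without a trend, gave 0 in A549, 0 between lines and 0 in both control comparisons, and the latter gave 1 in SW780. Against siEGFP alone 0 were called in SW780 and 0 between lines. Pseudocount 1, no filter, quantile normalization and the replicate block each gave 0 between lines. With each probe set on its own, 1 was called in A549 and 3 in SW780. These became 4 in A549 under median scaling, 0 and 1 without a trend, 0 and 1 against siEGFP alone, 2 and 5 against siFFluc alone, and 3 and 0 with 1 line alone. Of the 5 genes most like SFRP1, 2 were kept with pseudocount 1, 3 under quantile normalization, 3 under median scaling and 0 with averaged probe sets.

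Leaving out 1 array gave 523 to 2384 calls in A549, 749 to 2618 in SW780, 43 to 954 between lines, 179 to 584 and 189 to 1937 between control siRNAs in A549 and SW780, and 9103 to 9600 between control lines. Members called were then 0 to 2, 1 to 3, 0 to 2, 0 to 1, 0 to 3 and 9 to 10 (SFRP1, DKK3 and AXIN2 included) in the same order, probe sets of members 0 to 1 in A549 and 1 to 5 in SW780, and 1 to 4 of the 5 genes like SFRP1 were kept. Among values called in either setting, averaged probe sets turned 3 signs. These were of FZD2 in A549 (−0.01, adjusted p = 0.975) and, between control siRNAs in SW780, of CSNK1A1 (−0.06, adjusted p = 0.708) and PPARD (−0.13, adjusted p = 0.736). Sign changes of values called in neither setting are not counted here. The causes of these changes were not tested. Fits of a single line used fewer arrays, and comparisons against a single control used fewer control arrays. Signals of SFRP1, DKK3 and AXIN2 in SW780 are near background, which limits any change there.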

Other observations

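Of 13 tested receptors, siFFluc also moved ROR1 and FZD3 in A549, by 1.04 ± 0.18 and 0.84 ± 0.15 against siEGFP (adjusted p = 0.00586 and 0.00664), and RYK in SW780 by 0.45 ± 0.11 (adjusted p = 0.0297). The ROR1 and FZD3 calls ended without A549 siEGFP replicate 2 (0.0887 and 0.0841) or siFFluc replicate 1 (0.072 and 0.0728), and the ROR1 call without siFFluc replicate 2 (0.0649). With probe sets averaged the ROR1 value was 0.45 (adjusted p = 0.329). The RYK value was 0.24 without SW780 siFFluc replicate 1, and the RYK call ended in 8 of 22 other settings. Among nuclear factors between lines, TLE1 was at 4692 ± 490 in A549 controls and 365.8 ± 23.8 in SW780 controls (adjusted p = 3.46e-14), and CTBP2 at 7307 ± 212 and 3655 ± 144 (adjusted p = 1.62e-09).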
